A study of Mus musculus with 8 samples.

Results

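Scavenger receptors are the cell surface and endosomal proteins through which macrophages take up acetylated and oxidized LDL, bacteria, dying cells and free plasma proteins. They are not shut down as the cell fills with cholesterol, and uptake through the class A receptor encoded by Msr1 and the class B receptor encoded by Cd36 is a textbook route to the foam cell of the atherosclerotic plaque. The class A receptors are trimers with a collagen-like stalk, the class B receptors span the membrane at both ends of a lipid-binding ectodomain, and the other classes are built from unrelated folds. The RNA of 10 such genes was followed here, picked by symbol out of 49315 genes in the deposited count table: Marco and Msr1 of class A, Cd36, Scarb1 and Scarb2 of class B, Cd68 of class D, Olr1 and Mrc1 of class E, Stab1 of class H and Cd163 of class I. Not all of them are known chiefly for modified lipoprotein. Cd163 takes up haemoglobin bound to haptoglobin, Mrc1 (CD206) binds mannosylated glycoproteins, and Scarb2 (LIMP-2) works in the lysosomal membrane, so the 10 genes are a family by function in the wide sense.

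Bone marrow-derived macrophages (BMDMs) of C57BL/6 mice, grown in 10 ng/ml macrophage colony-stimulating factor, were transfected with either a negative control gapmeR (4 libraries, replicates 2, 5, 6 and 7) or gapmeRs against the macrophage lncRNA MAARS (4 libraries, replicates 9, 11, 13 and 15). The amount is written as 25 nM in the labels and as 25 nmol in the methods text, and the sources used here do not settle which is meant. A gapmeR is an antisense oligonucleotide that leads RNase H to cut its target RNA. All cells shared strain, growth factor, 10% fetal bovine serum and lipofection, and the labels name no further treatment. The labels do not say whether the 4 cultures of a group came from separate mice, so that p-values measure the spread between these libraries. Total RNA was ribodepleted and sequenced as pairs of 100 nt, and the per-library values below are in this replicate order.

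The libraries held 19287279 to 20567123 counts on genes in the control group and 20839671 to 24541205 in the MAARS gapmeR group, every MAARS gapmeR library above every control. Levels are given as CPM, the counts of a gene relative to the TMM-scaled total of its library. MAARS itself (Gm14461, ENSMUSG00000054510) stood at 13.1 ± 1.36 CPM in controls and 6.82 ± 0.844 CPM after MAARS knockdown (SD, n = 4 each) and so fell by 48.1% (edgeR log2 fold change -0.95, adjusted p = 5.8e-05). Knockdown here names the treatment with MAARS gapmeRs. Loss of MAARS and other effects of these gapmeRs cannot be told apart in this design. Of 8 macrophage marker genes, all were detected in every library. Csf1r, Cd14, Itgam, Lyz2 and Mertk were higher, Fcgr1 and Aif1 lower and Adgre1 (F4/80) not called. The summed level of the 8 genes was 11904 to 14986 CPM in controls and 15317 to 18623 CPM after knockdown. Most of that sum was Lyz2, at 8048 to 11042 and 11813 to 14677 CPM. T cell and adipocyte markers summed to at most 0.54 CPM in any library, with Cd3g, Adipoq, Lep and Cidec at 0, and B cell and dendritic cell markers to at most 2.49 CPM. Neutrophil markers summed to 53.0 to 149 CPM in controls and 55.8 to 89.1 CPM after knockdown. Fibroblast markers summed to 438 to 1006 and 691 to 1193 CPM, nearly all of it Col1a1 and Col1a2, while Lum had under 10 counts in every library. Endothelial markers summed to 17.3 to 21.8 CPM in controls and 7.77 to 8.79 CPM after knockdown. That fall was in Kdr (log2 fold change -1.54), while Pecam1, Cdh5, Tie1 and Tek were each at or below 2.31 CPM. The part of other cells and of library depth in the receptor levels was not tested, and in bulk RNA fewer cells of a type and less RNA per cell cannot be told apart.

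After MAARS knockdown the make-up of this receptor set differed, while its summed level per length overlapped between the groups. That sum was not tested, and Cd68 alone made up 66.3 to 71.1% of it in controls. With edgeR's quasi-likelihood test, 5 of the 9 receptors tested rose (adjusted p under 0.05), where 21.3% of the 13051 genes tested did, and these were Cd163, Marco, Stab1, Mrc1 and Cd36. Msr1 and Cd68 fell, 2 of 9, close to the 24.0% of all genes that fell. Of all calls, 47.0% were thus higher, and 60.4% with upper-quartile in place of TMM factors. Scarb1 and Scarb2 were not called, and Olr1 had too few counts to be tested. The 9 receptors tested had at least 100 counts in every library of both groups, so none passed the filter through its higher group alone. In all 7 called receptors the groups did not overlap in CPM, which held for 19.3% of all genes tested in the upward direction and 22.8% in the downward one. The median log2 fold change of the 9 receptors was 0.57, against 0.01 over all genes tested. The receptors were chosen with earlier results of these data known, and the genes tested were not matched to them in level. These comparisons with all genes are thus descriptions and not tests.

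**Figure D1:**
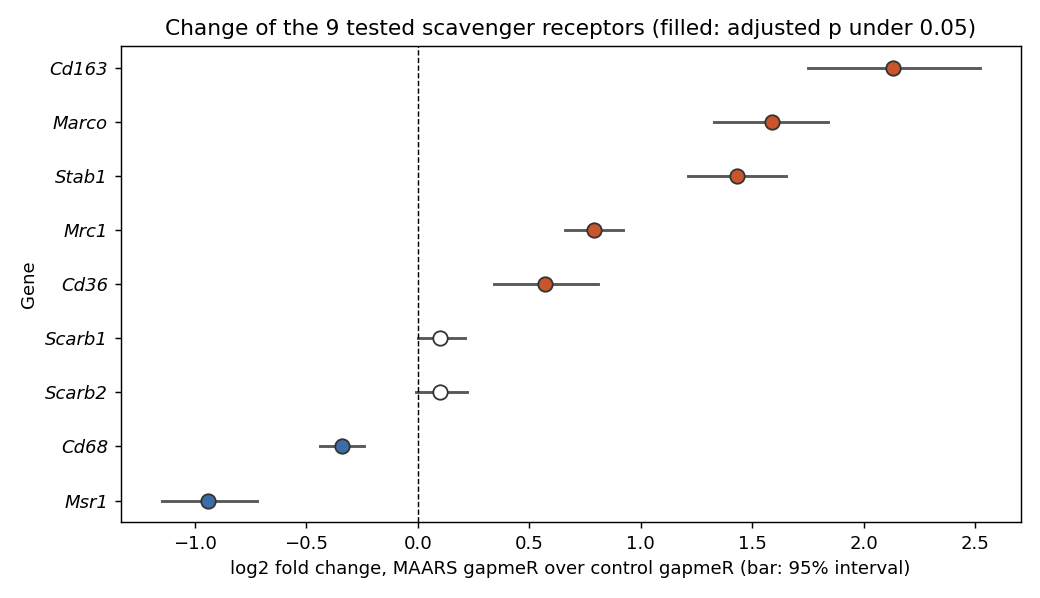
log2 fold change of each tested receptor after MAARS gapmeR against control gapmeR (horizontal axis) with its 95% interval from edgeR's fit (bar), n = 4 libraries per group; filled points passed an adjusted p of 0.05. Cd163, Marco, Stab1, Mrc1 and Cd36 lie to the right of 0 and Msr1 and Cd68 to the left. The interval of Scarb2 includes 0, and that of Scarb1 has a lower end that rounds to 0.

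To set the receptors beside each other, levels were expressed per length as RPKM, the CPM divided by the kilobases of a gene's merged exons. In control BMDMs these levels were far apart. Cd68 led with 1720 ± 59.0 RPKM (SD, n = 4), at the 99.9th percentile of the genes tested, and Cd36 followed with 404 ± 60.9 RPKM. Msr1 at 125 ± 16.2 and Mrc1 at 106 ± 2.38 RPKM came next, and their ranges overlapped. Stab1 at 55.7 ± 5.59 and Scarb2 at 47.5 ± 3.16 RPKM also overlapped, as did Scarb1 at 11 ± 0.563 and Marco at 10.6 ± 1.2 RPKM. Cd163 at 1.10 ± 0.162 and Olr1 at 0.0929 ± 0.0467 RPKM closed the order, with no overlap between them.

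After MAARS knockdown the upper end of the order was the same, Cd68 at 1360 ± 24.9 and Cd36 at 600 ± 68.1 RPKM, and below it the order changed. Mrc1 (183 ± 15.6 RPKM) and Stab1 (150 ± 20.7 RPKM), whose ranges overlapped, now both lay above Msr1 (65.3 ± 6.96 RPKM) with no overlap. Marco (32.0 ± 5.26 RPKM) lay above Scarb1 (11.8 ± 0.331 RPKM), also with no overlap. Marco moved from the 67.3th to the 88.3th percentile of level among all genes tested, and Cd163 from the 21.8th to the 48.6th.

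**Figure D2:**
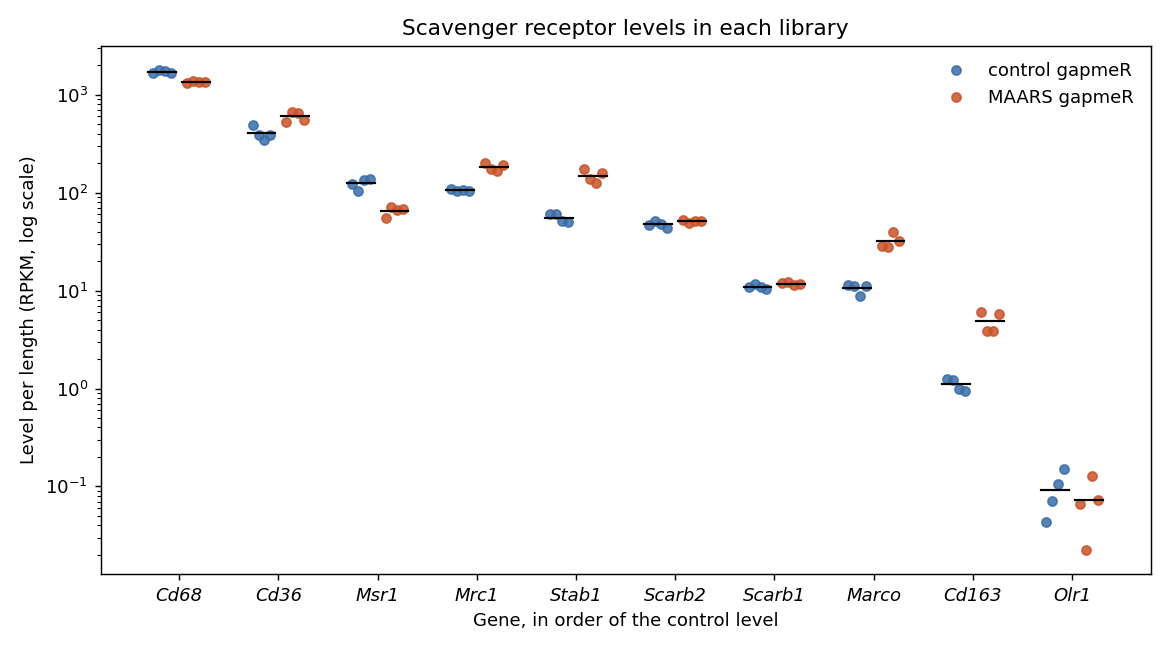
Level per length of the 10 receptors in each library (RPKM, log scale), in order of the control mean; each point is a library and each black line a group mean. Marco, Stab1, Mrc1 and Cd163 stand clear of their controls on the upper side and Msr1 on the lower side, whereas Scarb1, Scarb2 and Olr1 overlap.

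Summed over the 10 genes, the level was 2530, 2528, 2453 and 2412 RPKM in the control libraries and 2384, 2528, 2478 and 2442 RPKM in the MAARS gapmeR libraries, so the groups overlapped, with MAARS gapmeR replicate 9 below every control and control replicate 2 above every MAARS gapmeR library. What differed was the share of the called receptors in that sum, whereas the shares of Scarb1, Scarb2 and Olr1 overlapped between the groups. Cd68 made up 66.3 to 71.1% of it in controls and 54.7 to 55.9% after knockdown. Cd36 went from 14.2 to 19.4% in controls to 22.1 to 26.4%. The share of Stab1 was 2.08 to 2.41% in controls and 5.14 to 7.25% after knockdown, that of Mrc1 4.09 to 4.32% and 6.73 to 8.38%, and that of Msr1 4.06 to 5.71% and 2.32 to 2.83%. Msr1 thus went from a larger share than Stab1 in every control library to a smaller one in every MAARS gapmeR library.

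**Figure D3:**
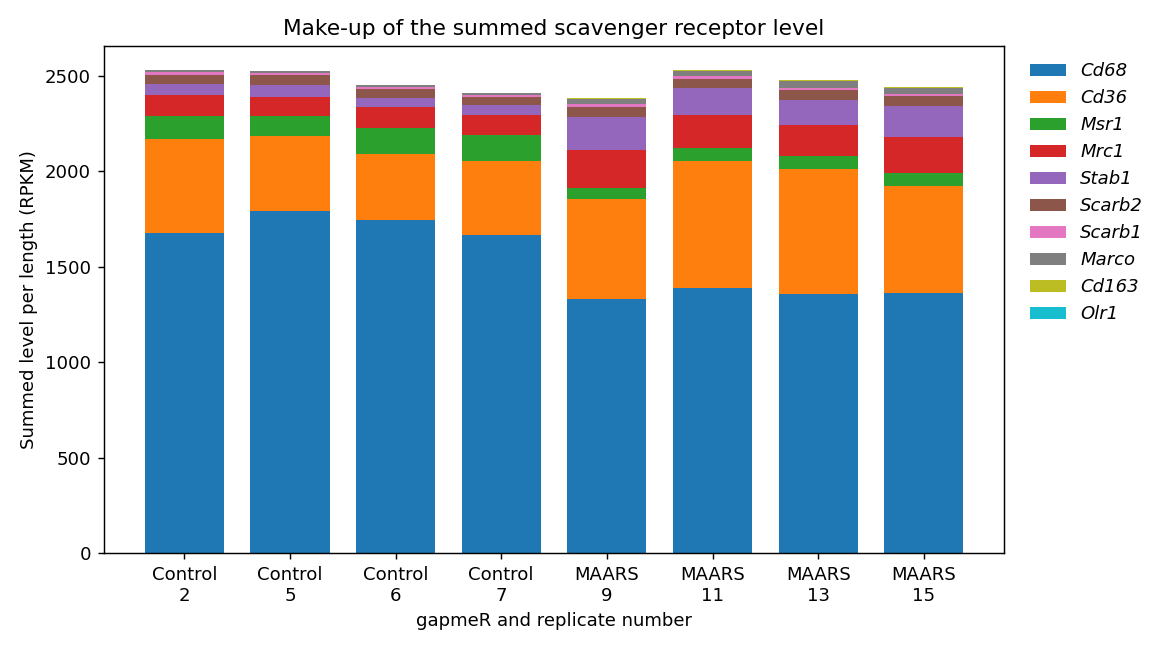
Summed level per length of the 10 receptors in each library (RPKM), stacked by gene, for control replicates 2, 5, 6 and 7 and MAARS gapmeR replicates 9, 11, 13 and 15. The totals of all 8 libraries lie between 2384 and 2530 RPKM and those of the groups overlap, while the Cd68 and Msr1 segments are smaller and the Cd36, Mrc1 and Stab1 segments larger after knockdown.

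The sequences just before the start sites are shown for a pair of receptors that rose, Marco and Mrc1, and for Cd68, which fell. They are examples, as the promoters of Cd36 and Olr1 also hold motifs that were searched for. RefSeq promoters on GRCm38.p6 were found for 8 of the 10 genes, all but Msr1 and Scarb1, and the 250 bases before each start were searched on both strands. The windows of Cd36 and Scarb2 lie inside the annotated span of their gene, and other start sites of a gene were not searched. The core motif of PU.1, the macrophage lineage factor encoded by Spi1, was searched as GAGGAAG and was in the promoters of Marco and Mrc1, and in 10.6% of all 32851 promoters. The AP-1 motif TGANTCA was in those of Cd68 and Olr1, and in 6.75% of all. The nuclear receptor site AGGTCA was in those of Cd36 and Olr1, and in 14.0% of all. Neither the E-box CACGTG (6.02% of all) nor the interferon motif GAAANNGAA (7.13% of all) was in any of the 8. No 2 of the 5 motifs overlapped each other in these windows, and no motif of the 5 was in the windows of Stab1, Scarb2 and Cd163. Each sequence below is written 5′ to 3′ on the gene's strand and ends at the base before the start, with the motif matches in capitals. Marco lies at chr1:120505025-120505274 on the minus strand, with 1 PU.1 core at -146 to -140. Mrc1 lies at chr2:14229164-14229413 on the plus strand, with 2 PU.1 cores on the reverse strand at -168 to -162 and -36 to -30. Cd68 lies at chr11:69666171-69666420 on the minus strand, with 2 AP-1 motifs at -149 to -143 and -24 to -18.
Marco: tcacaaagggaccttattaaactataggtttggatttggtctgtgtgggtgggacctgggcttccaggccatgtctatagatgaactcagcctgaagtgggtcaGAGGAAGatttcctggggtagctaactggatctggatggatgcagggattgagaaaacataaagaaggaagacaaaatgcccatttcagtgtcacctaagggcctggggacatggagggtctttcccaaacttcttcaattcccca
Mrc1: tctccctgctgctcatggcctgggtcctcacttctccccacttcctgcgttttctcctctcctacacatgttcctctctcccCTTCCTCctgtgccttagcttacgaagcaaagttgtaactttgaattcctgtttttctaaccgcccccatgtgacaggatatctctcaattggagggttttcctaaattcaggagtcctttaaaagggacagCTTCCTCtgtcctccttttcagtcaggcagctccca
Cd68: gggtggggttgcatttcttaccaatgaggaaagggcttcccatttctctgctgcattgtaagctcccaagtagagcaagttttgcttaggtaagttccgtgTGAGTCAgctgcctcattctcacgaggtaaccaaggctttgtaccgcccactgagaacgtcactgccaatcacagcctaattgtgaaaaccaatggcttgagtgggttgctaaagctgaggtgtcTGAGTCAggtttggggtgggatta

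The class A receptors moved in opposite directions. Marco, which binds bacteria and unopsonized particles as well as modified LDL, is encoded on the minus strand of chromosome 1 (120474538 to 120505024, GRCm38) by exons that overlap no other gene. It stood at 21.7, 21.6, 17.0 and 21.6 CPM in controls and at 54.7, 53.9, 75.8 and 61.8 CPM after MAARS knockdown. Every MAARS gapmeR library was at least 32.2 CPM above the highest control, and the widest spread was within the MAARS gapmeR group. The fold change was 3.01 (95% interval 2.52 to 3.59, log2 fold change 1.59, standard error 0.116, edgeR adjusted p = 5.27e-06).

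Msr1, the acetylated LDL receptor SR-A1, on the minus strand of chromosome 8 (39581685 to 39642673), went the other way. It stood at 780, 652, 864 and 873 CPM in controls and at 351, 454, 424 and 428 CPM after knockdown. The groups did not overlap, and control replicate 5, the lowest control, was nearest to the knockdown libraries. Msr1 fell by 47.7% (log2 fold change -0.94, standard error 0.0993, edgeR adjusted p = 2.68e-05).

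The ratio of Marco to Msr1 within a library does not depend on how libraries are scaled. Per length, Msr1 was 9.18 to 15.4 times as abundant as Marco in the control libraries and 1.70 to 2.56 times as abundant after knockdown. The mean log2 ratio of Marco to Msr1 moved from -3.55 ± 0.315 to -1.04 ± 0.247 (SD, n = 4 each), by 2.52. Stab1 to Msr1 moved from -1.16 ± 0.330 to 1.19 ± 0.334 and Mrc1 to Msr1 from -0.23 ± 0.189 to 1.49 ± 0.264 on the same scale, and for all 3 pairs no control library overlapped a MAARS gapmeR library. These pairs were chosen after the values were seen and carry no test.

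**Figure D4:**
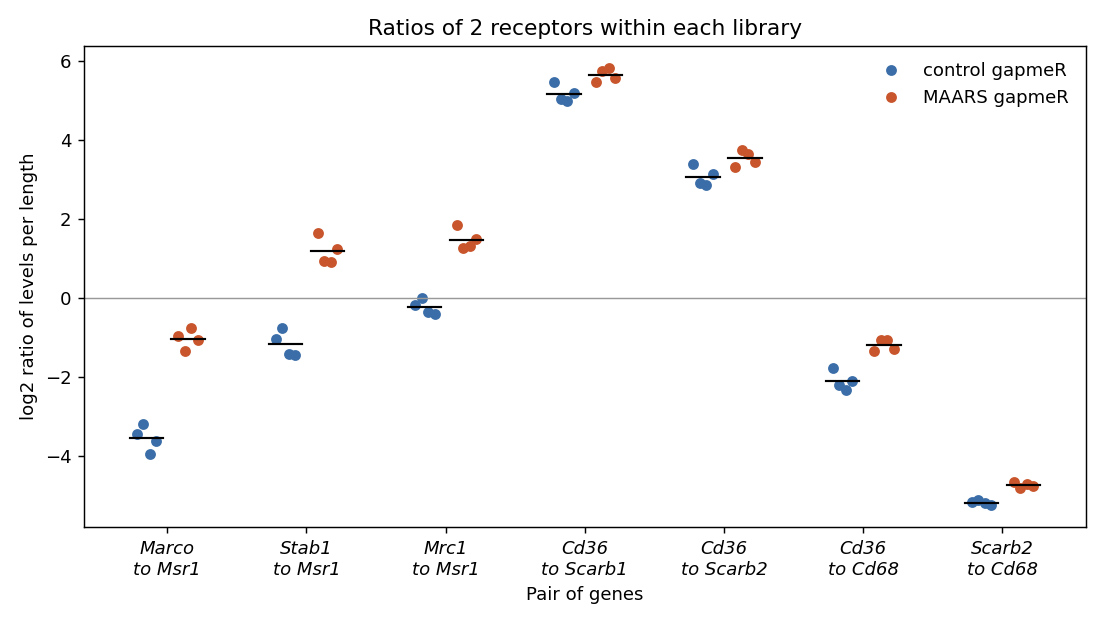
log2 ratio of the levels per length of a pair of receptors within each library (points) with group means (lines), for control gapmeR and MAARS gapmeR. The ratios to Msr1 shift by 1.72 to 2.52 with no overlap, those of Cd36 to Scarb1 and to Scarb2 shift by 0.47 and overlap, and that of Scarb2 to Cd68 shifts by 0.45.

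Stab1 and Cd163 rose, as did Mrc1. Stab1, on the minus strand of chromosome 14 (31139013 to 31168641), encodes stabilin-1, a large receptor that clears acetylated LDL, SPARC and cells that expose phosphatidylserine. It stood at 618, 627, 525 and 521 CPM in controls and at 1778, 1420, 1309 and 1650 CPM after knockdown. The lowest MAARS gapmeR library lay 682 CPM above the highest control. The fold change was 2.69 (95% interval 2.31 to 3.13, edgeR adjusted p = 5.27e-06), and 1.09% of the exonic bases of Stab1 overlap Nt5dc2 on the opposite strand.

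Cd163, on the plus strand of chromosome 6 (124304656 to 124330527), was the scarcest receptor tested and changed by the widest factor. It had 134, 131, 100 and 104 counts in controls, or 6.86, 6.67, 5.41 and 5.11 CPM, and 692, 527, 457 and 718 counts after knockdown, or 32.7, 21, 21 and 31.1 CPM. The knockdown libraries fell into a higher pair (replicates 9 and 15) and a lower pair (replicates 11 and 13), and the lower pair was still above all controls. The fold change was 4.39 (95% interval 3.37 to 5.72, log2 fold change 2.13, edgeR adjusted p = 6.49e-06), with a coefficient of variation of 24.0% within the knockdown group.

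Mrc1, on the plus strand of chromosome 2 (14229392 to 14332057), encodes the mannose receptor. It stood at 693, 659, 675 and 664 CPM in controls, with a coefficient of variation of 2.26%, and at 1273, 1099, 1063 and 1221 CPM after knockdown. The controls were closely grouped and all knockdown libraries were at least 369 CPM above them. The fold change was 1.73 (95% interval 1.58 to 1.90, edgeR adjusted p = 5.45e-06). Within the MAARS gapmeR group, Stab1, Cd163 and Mrc1 were all highest in replicate 9 and next highest in replicate 15, while Msr1 and Cd36 were lowest in replicate 9 and Marco was highest in replicate 13.

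The class B receptors rose in part. Cd36, the fatty acid translocase that also takes up oxidized LDL, lies on the minus strand of chromosome 5 (17781690 to 17888801). It stood at 1761, 1408, 1248 and 1384 CPM in controls and at 1893, 2377, 2350 and 2003 CPM after knockdown. The groups did not overlap, but control replicate 2 and MAARS gapmeR replicate 9 were only 132 CPM apart. The fold change was 1.49 (95% interval 1.26 to 1.75, edgeR adjusted p = 0.00121), and the log2 fold change of 0.57 ran from 0.50 to 0.68 over the fits that left out 1 library each.

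Scarb1, the HDL receptor SR-BI that exchanges cholesteryl ester with lipoproteins, stood at 92.7, 100, 91.7 and 89.4 CPM in controls and at 101, 104, 97.3 and 99.8 CPM after knockdown, and the groups overlapped. Its fold change was 1.08 (95% interval 1.00 to 1.16, edgeR adjusted p = 0.0935). Scarb2, the lysosomal class B member, stood at 295, 324, 300 and 275 CPM in controls and at 329, 310, 325 and 320 CPM after knockdown, likewise with overlap. Its fold change was 1.08 (95% interval 0.993 to 1.16, edgeR adjusted p = 0.125). For both genes control replicate 5 was the highest control. Without it the edgeR adjusted p was 0.0344 for Scarb1 and 0.0365 for Scarb2, and with upper-quartile factors 0.0114 and 0.0166, so whether they changed rests on that library and on the scaling, with intervals that end at a rise of 1.16-fold. The log2 ratio of Cd36 to Scarb1 was 5.49, 5.05, 5.01 and 5.2 in controls and 5.47, 5.76, 5.84 and 5.57 after knockdown. Control replicate 2 thus overlapped the knockdown libraries on this scale, and it did so for Cd36 to Scarb2 as well.

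Cd68 (macrosialin), a heavily glycosylated protein of late endosomes that binds oxidized LDL, lies on the minus strand of chromosome 11 (69664213 to 69666153). It stood at 2109, 2253, 2192 and 2096 CPM in controls and at 1672, 1748, 1704 and 1714 CPM after knockdown. Both groups were tight, with coefficients of variation of 3.43% and 1.83%, and they lay 347 CPM apart. Cd68 fell by 20.9% (log2 fold change -0.34, standard error 0.0467, edgeR adjusted p = 0.000164). In absolute level this was the largest loss among the 10 receptors, from 1720 to 1360 RPKM.

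Olr1, which encodes the oxidized LDL receptor LOX-1, had 3, 5, 7 and 11 counts in controls and 5, 2, 10 and 6 counts after knockdown. The summed counts of 26 (95% Poisson interval 17.0 to 38.1) and 23 (14.6 to 34.5) cover counting error only, and a difference was not detectable at this depth.

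When edgeR calls also had to exceed 1.5 in size on the log2 scale, Marco and Cd163 were called higher, against 0.513% of all genes tested, and no receptor lower, against 1.69%. With 1.5 taken as the linear fold instead, Stab1 and Mrc1 joined them (4 higher, against 7.35% of all genes) and Msr1 was called lower (6.31% of all genes), with Cd36 just outside at 1.49-fold. At an adjusted p under 0.0001 the same 4 receptors were higher (2.28% of all genes) and Msr1 lower (4.73%).

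Genes related to these receptors by function were counted in 5 lists, with genes among the 4 of smallest p in each described by their values and any other gene named after its values were seen. The share of all genes tested against which these counts stand was 21.3% higher and 24.0% lower. Of 12 other scavenger receptors tested, 4 rose and 5 fell, with a median log2 fold change of -0.16. Colec12 (SR-A4), another collagen-stalk receptor, rose from 16.9 ± 1.74 to 34.7 ± 2.38 CPM (SD, n = 4 each, edgeR adjusted p = 5.69e-06). Stab2, the paralog of Stab1, rose from 19.2 ± 3.11 to 31.8 ± 2.97 CPM (edgeR adjusted p = 0.00032). Ager, the receptor for advanced glycation end products, rose from 0.619 ± 0.157 to 1.90 ± 0.520 CPM, a low level. Control replicate 7 had 8 counts of Ager, so that this gene passed the filter on low counts only through the MAARS gapmeR group, where it was higher, and its call is no support for the list. Cd44 was also called higher. Cxcl16 (SR-PSOX), a transmembrane chemokine that binds oxidized LDL, fell from 163 ± 33.1 to 85.1 ± 10.4 CPM (edgeR adjusted p = 0.000212), with 18.3% of its exonic bases overlapping Zmynd15 on the opposite strand. Scarf1, Cd5l, Ssc5d and Lgals3 were called lower too. The paralogs Stab1 and Stab2 thus both rose.

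Of 11 receptors for native lipoprotein and their helpers tested, Lrp1 rose (log2 fold change 0.29) and 5 fell, with a median of -0.18. Lrpap1, a chaperone of lipoprotein receptors such as Lrp1, fell from 257 ± 8.23 to 202 ± 3.82 CPM (SD, n = 4 each, edgeR adjusted p = 5.72e-05). Lrp12 and Sorl1 had log2 fold changes of -0.32 and -0.44, and Lrp10 was also called lower.

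Genes that handle cholesterol and fatty acids after uptake moved both ways, 3 up and 5 down of 12, with a median of -0.04. Npc2, which passes lysosomal cholesterol to Npc1, fell from 2816 ± 155 to 1777 ± 113 CPM (SD, n = 4 each, edgeR adjusted p = 1.18e-05). The fatty acid carrier Fabp5 fell from 2767 ± 127 to 1953 ± 44.0 CPM (edgeR adjusted p = 1.89e-05). The sterol exporters split, as Abca1 rose from 560 ± 63.1 to 966 ± 129 CPM and Abcg1 fell from 438 ± 53.0 to 287 ± 32.8 CPM (edgeR adjusted p = 9.1e-05 and 0.000416). Lpl and Npc1 were also called higher, and Plin2 and Fabp4 lower.

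Among 15 tested partners of the receptors, 4 rose and 5 fell, with a median of 0.08. Vav1, which acts in Cd36 signalling, fell from 288 ± 13 to 194 ± 6.56 CPM (SD, n = 4 each, edgeR adjusted p = 7.12e-06), and Tlr2 and Tlr4, which share ligands and complexes with Cd36, had log2 fold changes of -0.71 and -0.39. Tlr6 was also called lower, at an edgeR adjusted p of 0.0465, and Fyn, Cd9, Cd81 and Adam10 were called higher.

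Of 18 transcriptional regulators with known roles at scavenger receptor or macrophage genes, Maf alone was called higher and 9 were called lower (7 with upper-quartile factors or without MAARS gapmeR replicate 15), with a median of -0.20. Spi1, which encodes PU.1, fell from 344 ± 29.1 to 263 ± 6.89 CPM (SD, n = 4 each, edgeR adjusted p = 0.000335). The PU.1 core motif is in the promoters of Marco and Mrc1, which rose, and in 10.6% of all promoters. A part of PU.1 in these levels was not tested. Maf rose from 513 ± 41.8 to 720 ± 51.2 CPM (edgeR adjusted p = 0.000182), and 5.34% of its exonic bases overlap Gm15655 on the opposite strand. Klf4 fell from 12.8 ± 1.56 to 6.18 ± 0.657 CPM (edgeR adjusted p = 3.36e-05). The oxysterol receptor gene Nr1h3 (LXRα) was also called lower, with a log2 fold change of -0.71. Pparg, a known activator of Cd36 transcription, had a log2 fold change of -0.01 and was not called (edgeR adjusted p = 0.962).

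**Figure D5:**
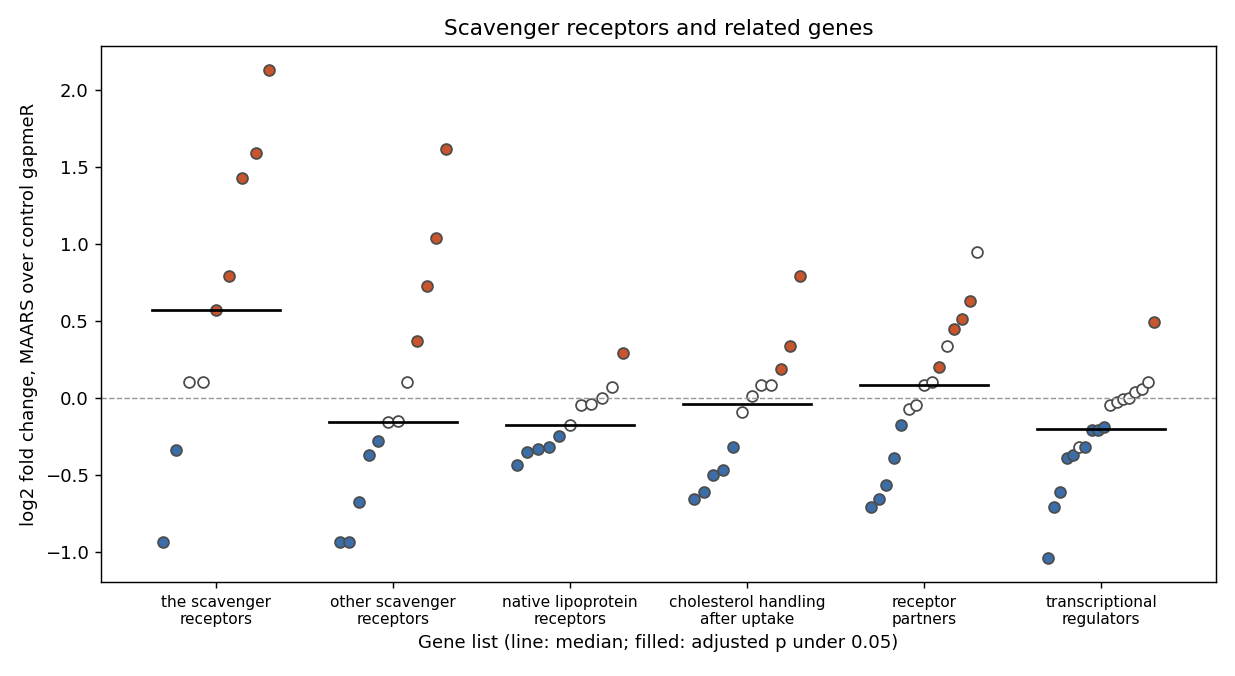
log2 fold change of each tested gene after MAARS gapmeR against control gapmeR, for the 9 scavenger receptors and the 5 related lists; filled points passed an adjusted p of 0.05 in edgeR's test and lines are list medians. The receptors have a median of 0.57, and the other lists lie between -0.20 and 0.08.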

How the data were processed

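Raw counts per Ensembl gene for 8 libraries were used as deposited. The authors trimmed the reads (Trimmomatic 0.36), aligned them with STAR 2.5.2b to mm10 (GRCm38) with Ensembl transcripts, and made gene counts by featureCounts (Subread 1.5.2), per the labels and methods; how strand and reads mapping to several places were handled is not given in the sources used here. Groups followed the labels. Symbols, positions and lengths came from GENCODE M21, which held 99.47% of the gene identifiers.

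Counts were analysed with R 4.3.3 and edgeR 4.0.16: filterByExpr (minimum count 10, total 15) left 13051 genes, then TMM factors, glmQLFit and glmQLFTest, with Benjamini-Hochberg adjustment over these genes. CPM and RPKM use TMM-normalized library sizes. Standard errors were the log2 fold change over the square root of F, and intervals used the t quantile of the fit. The procedure was also run on simulated counts with few changed genes and a common dispersion shared by all genes. That run checks the code and does not measure the error rate in these data. Alternatives were RLE and upper-quartile factors, DESeq2 1.42.0, limma-voom (limma 3.58.1), a robust prior, other filters, 1 surrogate variable (sva 3.50.0), stricter thresholds, other lengths and each library left out.

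Named genes, 31 in all, were the 10 receptors, MAARS and the 4 genes of smallest p in each related list. Any other gene of these lists in the text was picked after its values were seen. The receptors and lists were chosen with earlier results of these data known. Some genes of these lists enter the counts and medians and are not reported here by name. Protein features were not analysed here.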

Additional observations from a re-analysis of the deposited data

Results flagged for a closer look

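Of 62 groups of 4 libraries examined for an outlying library, over 31 named genes, 2 had one by Dixon's test at the 95% level, and chance flags about 1 in 20. Marco was at 17.0 CPM in control replicate 6, against 21.6 to 21.7 CPM in the other controls, and without that library its log2 fold change was 1.51 in place of 1.59. Maf was at 796 CPM in MAARS gapmeR replicate 9, against 689 to 698 CPM in the others, and without it the log2 fold change was 0.43 in place of 0.49. Replicate 9 was also the knockdown library with the highest Stab1, Cd163 and Mrc1.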

How the results depend on the processing

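In 16 alternative fits (8 with other tools, factors, filters or covariates, 8 with 1 library left out), the 7 called receptors and MAARS kept their direction and an adjusted p under 0.05. So did the 20 genes given by the 4 of smallest p in each related list. Other list genes named above enter here only through the counts below, some of which changed. Scarb1 and Scarb2 were called higher in 4 of 32 such values, with upper-quartile factors (log2 fold change 0.17 for each) and without control replicate 5 (0.13 and 0.14), which made 7 receptors higher in place of 5. With calls also required to exceed 1.5 in size on the log2 scale, 2 receptors were higher and 0 lower, and with 1.5 as linear fold, or an adjusted p under 0.0001, 1 was lower. Upper-quartile factors made 60.4% of all calls higher, against 47.0%, and 2 transcriptional regulators higher in place of 1, Cebpa beside Maf. Over these fits the regulators called lower numbered 7 to 9, the receptor partners called lower 4 to 5 (4 in 8 of the 16), those called higher 4 to 5, the native lipoprotein receptors called lower 5 to 6 and the cholesterol genes called higher 2 to 4, with 2 without MAARS gapmeR replicate 11. Neither the longest coding transcript as length nor TPM changed the order of the control levels. No paired analysis was possible because the groups share no replicate number. Depth limits Olr1 alone among the receptors, and 4 cultures a group allow no permutation p below 0.0286.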
